A study of Mus musculus with 6 samples.

Results

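The Myc and Max network is a family of basic helix-loop-helix leucine zipper transcription factors, and 9 of its genes were examined here in mouse neuromesodermal progenitors (NMPs) treated briefly with retinoic acid (RA). The genes were *Myc*, *Mycn*, *Max*, *Mxd1*, *Mxd3*, *Mxd4*, *Mnt*, *Mga* and *Mlx*. Each was found by its exact symbol in every sample, which gave 16 of 30352 RefSeq transcripts and 9 of 20631 genes. The names were chosen on earlier results of these same 6 samples, with no stated threshold. Counts of changed network genes are therefore descriptions, and their p-values are not independent support for a change in the network.

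To obtain NMPs, mouse embryonic stem cells (ESCs) had received bFGF for 2 days and then, for 1 day, bFGF together with CHIR99021, which activates WNT signaling. They were then kept for 2 h in N2B27 medium with DMSO (the vehicle), 25 nM RA or 1 µM RA, 2 samples per condition. All groups thus shared the same derivation, and bFGF and CHIR99021 were absent from the final medium of all of them. The labels give the strain as 129 R1, whereas the methods describe C57BL/6 ESCs, and the duplicates were separate culture dishes that the methods call technical replicates. P-values below therefore measure the spread between dishes of 1 experiment.

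MYC, MYCN and MYCL bind DNA only as dimers with MAX, at E-boxes, and mostly activate genes of ribosome production, metabolism and cell division. MXD proteins, MNT and MGA also dimerize with MAX and repress such genes, while MLX pairs with MXD1, MXD4, MNT and the MONDO proteins, which respond to glucose. In the early embryo MYC and MYCN sustain growth of pluripotent and progenitor cells, and MYCN is needed for expansion of neural progenitors.

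The E-box is the site at which these dimers bind, so promoters were searched for it. The palindrome CACGTG was present in 4 of the 8 network promoters that could be matched by symbol in a RefSeq table (GRCm38.p6), namely those of *Max*, *Mxd4*, *Mnt* and *Mlx*. *Myc* had no entry in the table. Each promoter ran from 250 bases before to 50 bases after the transcription start. The 4 sites are shown 5′ to 3′ on the strand of the gene with 12 bases on each side and the E-box in capitals. Their letters match the binding element of the network, and binding to them was not measured.
*Max* (chr12:76962234-76962263, minus strand): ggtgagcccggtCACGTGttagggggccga
*Mxd4* (chr5:34187912-34187941, minus strand): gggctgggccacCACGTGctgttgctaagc
*Mnt* (chr11:74830789-74830818, plus strand): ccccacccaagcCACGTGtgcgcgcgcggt
*Mlx* (chr11:101087238-101087267, plus strand): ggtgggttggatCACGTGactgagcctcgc

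Counted from the start that the promoter table uses, the E-box began 3 bases before it in *Max*, 40 in *Mlx*, 123 in *Mnt* and 219 in *Mxd4*. RefSeq genes reach further upstream for *Max* (to 76962323), *Mlx* (101086707), *Mnt* (74830806) and *Mga* (119872503). Distances given here therefore hold only for the starts used. Of all 32851 promoters of the table, 7.15% held CACGTG on either strand. The variant CACGCG was found in the *Mga* promoter, 21 bases before the start, and in 9.27% of all promoters. CATGTG was in none of the 8 and in 14.2% of all. The RA response element, a repeat of the hexamer AGGTCA with 5, 2 or 1 bases between the copies (DR5, DR2 and DR1), was searched on both strands. The hexamer GGGTCA was accepted in place of either copy, and so was the hexamer AGTTCA. No such repeat was in the 8 windows. Such repeats were in 0.0731%, 0.0883% and 0.195% of all promoters, respectively. With shares this low, finding none in 8 windows cannot tell whether the genes have such elements. Sites outside the windows or near *Myc* were not searched. A match of letters does not show binding, and the data hold no binding measurement.

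Ribosomal RNA-depleted total RNA was sequenced, and each sample had a total of 31753556 to 42029348 estimated counts. Levels are given as RPKM (reads per kilobase of transcript, scaled to the reads of the sample), summed over the transcripts of a gene. Changes are log2 fold changes of the summed counts with their standard errors (SE). They were tested by the likelihood ratio test of edgeR, p-values being adjusted over 15143 genes (Benjamini-Hochberg), and a gene was called at an adjusted p under 0.1. The NMP markers *T*, *Sox2*, *Nkx1-2* and *Cdx2* were all present and together had 420 to 481 RPKM in the 6 samples. Pluripotency markers (*Nanog*, *Zfp42* and *Pou5f1*) together had 458 to 494 RPKM, most of it from *Pou5f1*. *Nanog* had 18.1 to 20.8 RPKM and *Zfp42* 4.55 to 5.83 RPKM. None of these markers was called at either dose by edgeR or DESeq2 or had an unadjusted p under 0.05 (0 of 3). Early neural genes (*Sox1*, *Pax6* and *Sox3*) had 4.59 to 6.25 RPKM in all, nearly all of it from *Sox3*. *Sox1*, which the paper uses to mark committed neural cells, had 0.180 to 0.245 RPKM, and *Pax6* had 0.0484 to 0.0885 RPKM. The 6 fibroblast markers summed to between 5.05 and 5.81 RPKM, and *Col1a1* and *Col1a2* were called lower at 1 µM RA, though not by DESeq2 (adjusted p = 0.18 and 0.11) nor with the GC and length offsets given further on (adjusted p = 0.12 and 0.20). The RA response genes *Rarb* and *Cyp26a1* together rose from 52.5 and 52.9 RPKM in DMSO to 183 in both samples of the lower dose and to 279 and 290 in those of the higher dose.

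In DMSO, the highest of the 9 genes was *Mycn*, the MYC gene of neural and other progenitors, at 21.8 ± 0.102 RPKM (SD, n = 2), which was above 85.3% of all genes. *Max*, the shared partner, followed at 18.5 ± 0.447 RPKM and *Mlx* at 18.1 ± 0.619 RPKM, and the samples of these 2 genes overlapped. *Mga* was next at 16.3 ± 0.129 RPKM and *Myc* at 11.6 ± 1.07 RPKM. The MXD genes and *Mnt* were lower, with *Mxd3* at 5.51 ± 0.802 RPKM, *Mxd4* at 4.21 ± 0.0593 RPKM, *Mnt* at 2.12 ± 0.117 RPKM and *Mxd1* at 0.926 ± 0.0398 RPKM. Except for *Max* and *Mlx*, neighbours in this order did not overlap in DMSO. With 1 µM RA the means of *Myc* (6.27 ± 0.738 RPKM) and *Mxd3* (6.06 ± 0.589 RPKM) came together, and their samples overlapped.

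**Figure D1:**
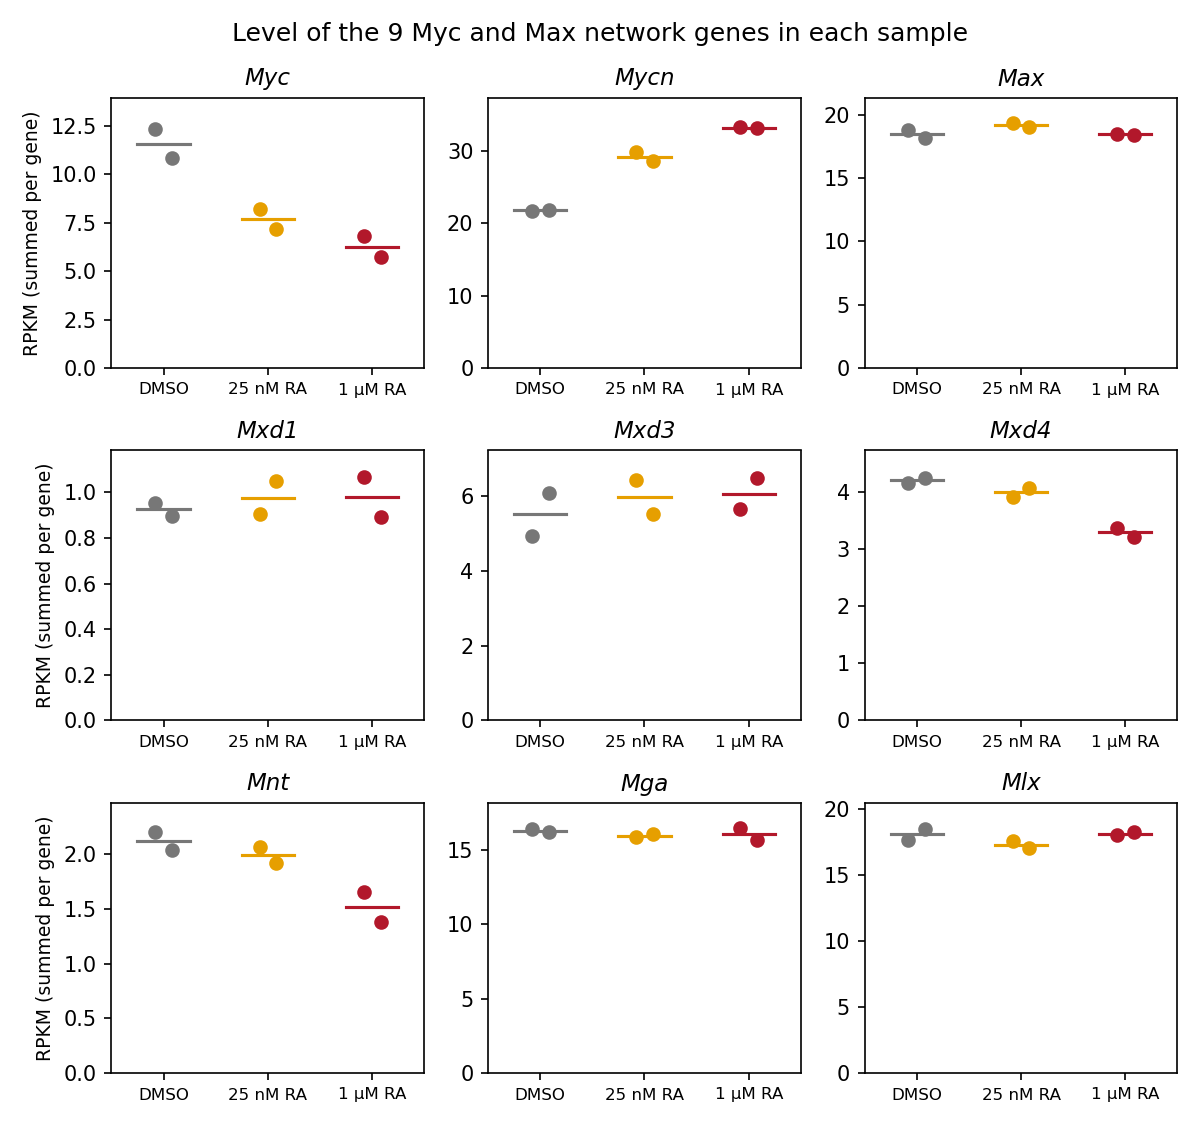
Summed RPKM of each network gene (y axis, starting at 0) in the 2 samples of DMSO, 25 nM RA and 1 µM RA, where points are samples and bars are means. *Myc* falls from 12.3 and 10.8 RPKM to 6.79 and 5.75 RPKM, *Mycn* rises from 21.7 and 21.9 RPKM to 33.3 and 33.1 RPKM, and *Max* stays between 18.1 and 19.3 RPKM.

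The 2 MYC genes of the set moved in opposite directions within 2 h. *Myc* (chromosome 15 from 61985341 to 61990361 of mm10, plus strand) encodes the MYC protein of most dividing cells. It had 12.3 and 10.8 RPKM in DMSO, 8.23 and 7.18 RPKM after 25 nM RA, and 6.79 and 5.75 RPKM after 1 µM RA. Samples of the 3 conditions did not overlap, and all 4 RA-treated samples lay below both DMSO samples. Its level fell by 0.60 (SE 0.086, adjusted p = 3.4e-10) after 25 nM RA and by 0.90 (SE 0.088, adjusted p = 2.4e-22) after 1 µM RA. These values correspond to 0.660 and 0.538 times the DMSO level. Among the genes tested, 3.55% were called lower at the lower dose and 11.2% at the higher dose.

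*Mycn* (chromosome 12 from 12936093 to 12941836, minus strand, NM_008709) had 21.7 and 21.9 RPKM in DMSO, 29.8 and 28.6 RPKM after 25 nM RA, and 33.3 and 33.1 RPKM after 1 µM RA. Again no 2 conditions overlapped, with DMSO lowest and 1 µM RA highest. It rose by 0.42 (SE 0.051, adjusted p = 3.2e-14) after 25 nM RA and by 0.60 (SE 0.051, adjusted p = 2.7e-30) after 1 µM RA, that is 1.34-fold and 1.52-fold. Among all genes tested, 4.5% were called higher at the lower dose and 8.54% at the higher dose. Both comparisons share the DMSO samples.

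The doses were also compared directly. *Myc* was lower with 1 µM RA than with 25 nM RA by -0.30 (SE 0.091, adjusted p = 0.049), a call that edgeR's quasi-likelihood test (adjusted p = 0.13) and DESeq2 (adjusted p = 0.24) did not make. It was also lost without the first sample of 25 nM RA (-0.21, adjusted p = 0.60) or the second of 1 µM RA (-0.17, adjusted p = 0.40). *Mycn* was higher with 1 µM RA by 0.18 (SE 0.050, adjusted p = 0.016). The quasi-likelihood test (adjusted p = 0.043) and DESeq2 (adjusted p = 0.067) also called this difference. It was 0.20 without the first sample of 25 nM RA, 0.16 without the second and 0.17 without the first sample of 1 µM RA. In each of these smaller fits the call of *Mycn* was lost. In this comparison 2.62% of genes were called lower and 0.792% higher.

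Markers of presomitic mesoderm and endoderm fell as *Myc* did, whereas those of NMPs rose or were not called. The presomitic mesoderm markers *Tbx6* and *Msgn1* summed to 36.0 RPKM in both DMSO samples, 27.6 and 24.8 RPKM with 25 nM RA, and 19.9 and 21.4 RPKM with 1 µM RA, and both genes were called lower at both doses. The endoderm markers *Sox17* and *Foxa2* summed to 20.7 and 21.6 RPKM in DMSO, 15.6 and 15.7 RPKM after 25 nM RA, and 13.3 and 13.1 RPKM after 1 µM RA, and both were called lower at both doses. Of the NMP markers, *Sox2* rose by 1.56 and 1.64 and *Nkx1-2* by 1.02 and 0.98 at the lower and higher dose, and *Cdx2* was called at the lower dose (0.24, adjusted p = 0.054, and 0.51 by DESeq2) and not at the higher (0.02). *T*, the most abundant of them, had 367 to 380 RPKM in the 6 samples and was not called (-0.0050 and -0.03). The part of these shifts in the *Myc* and *Mycn* results was not tested. In bulk RNA, fewer cells of a type and less RNA per cell cannot be told apart.

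Reads of *Myc* were divided among 4 transcripts of 2399 or 2396 bases, and the division stayed alike across conditions. NM_001177352 and NM_010849 had the same estimated counts in each sample, as did NM_001177353 and NM_001177354. Each of the first pair took 28.6% to 32.3% of the gene's count and each of the second pair 17.7% to 21.4%, so these are 2 and not 4 separate measurements. In the fit of 22074 transcripts, where 3.69% were called in either direction at the lower dose and 8.3% at the higher dose, the second pair changed by -0.75 (SE 0.22, adjusted p = 0.025) at 25 nM RA. The first pair had -0.50 (SE 0.20, adjusted p = 0.22). At 1 µM RA both pairs were called lower, at -0.89 (SE 0.20, adjusted p = 4.8e-04) and -0.91 (SE 0.22, adjusted p = 0.0014). By the quasi-likelihood test the second pair was not called at 25 nM RA (adjusted p = 0.18).

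**Figure D2:**
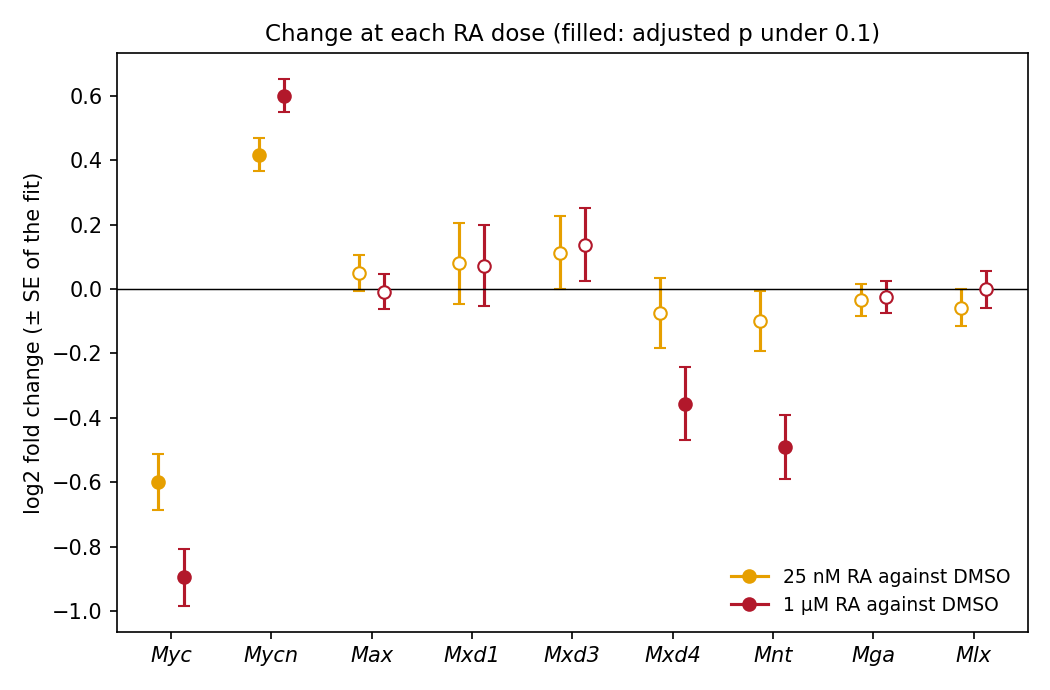
Log2 fold change against DMSO (y axis) of each network gene at 25 nM RA and 1 µM RA, where error bars are ± SE of the fit and filled points have an adjusted p under 0.1. *Myc* lies at -0.60 and -0.90 and *Mycn* at 0.42 and 0.60, *Mxd4* and *Mnt* are filled only at 1 µM RA, and the other genes lie within 0.14 of 0 with open points.

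*Mycl*, the remaining MYC gene, lies outside the 9 but completes the picture. It had 24.0 and 24.3 RPKM in DMSO, 21.2 and 20.02 RPKM after 25 nM RA, and 20.2 and 20.8 RPKM after 1 µM RA. It fell by 0.24 on the log2 scale (SE 0.050, adjusted p = 4.9e-05) and by 0.26 (SE 0.050, adjusted p = 6.2e-06), with no overlap between DMSO and RA. The RPKM of *Myc*, *Mycn* and *Mycl* added to 58.1 and 57.0 in DMSO, 59.2 and 55.9 after 25 nM RA, and 60.3 and 59.6 after 1 µM RA. DMSO and 25 nM RA overlapped in this sum, and both 1 µM RA samples were above the DMSO samples. *Myc* made up 21.3% and 19.0% of it in DMSO and 11.3% and 9.64% with 1 µM RA, whereas *Mycn* went from 37.4% and 38.4% to 55.3% and 55.5%. The ratio of *Mycn* to *Myc* in RPKM was 1.76 and 2.02 in DMSO, 3.62 and 3.99 after 25 nM RA, and 4.91 and 5.76 after 1 µM RA. These sums and ratios are of RNA and say nothing of protein.

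**Figure D3:**
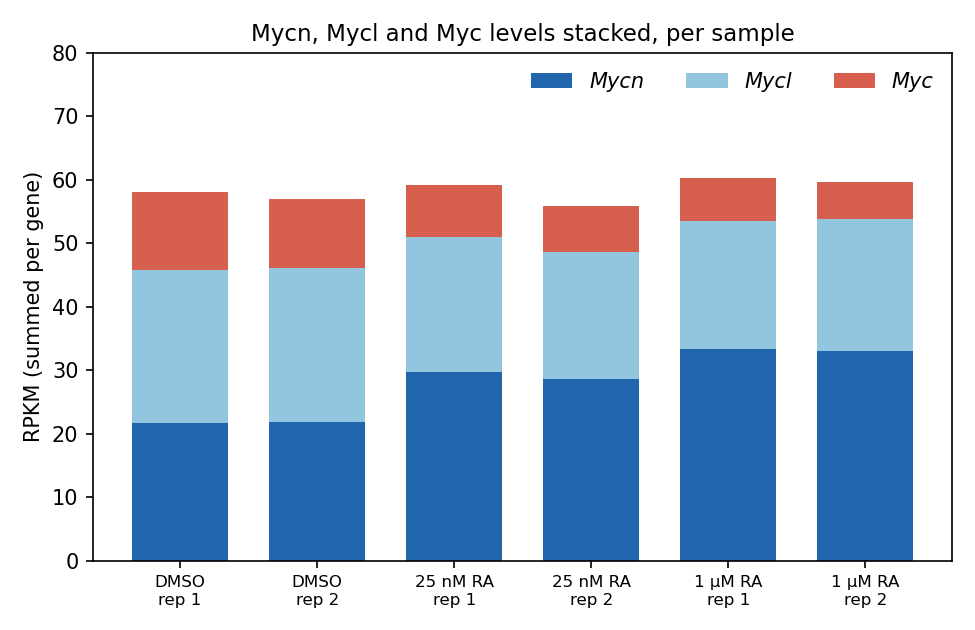
RPKM of *Mycn*, *Mycl* and *Myc* stacked in each of the 6 samples (y axis starting at 0). The height of the stack lies between 55.9 and 60.3 RPKM, while the *Mycn* part widens and the *Myc* part narrows with RA.

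*Max* (chromosome 12 from 76937269 to 76962248, minus strand), without which MYC proteins do not bind DNA, was not called. It had 18.8 and 18.1 RPKM in DMSO, 19.3 and 19.0 RPKM after 25 nM RA, and 18.5 and 18.4 RPKM after 1 µM RA. Both samples with 25 nM RA lay just above the DMSO samples, and those with 1 µM RA lay among them. The change was 0.05 at 25 nM RA (95% interval -0.06 to 0.16) and -0.0080 at 1 µM RA (-0.12 to 0.10). NM_001146176 took 61.9% to 70.5% of its counts and NM_008558 the rest, and neither transcript was called. The RPKM of *Myc* and *Mycn* together was 34.1 and 32.7 in DMSO and 35.8 to 40.1 with RA, above that of *Max* in every sample.

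Of the repressor genes among the 9, *Mnt* and *Mxd4* fell at 1 µM RA. *Mnt* (chromosome 11 from 74830924 to 74845725, plus strand, NM_010813) encodes a repressor present in most cells, which competes with MYC for MAX. It had 2.202 and 2.04 RPKM in DMSO, 2.06 and 1.92 RPKM after 25 nM RA, and 1.66 and 1.38 RPKM after 1 µM RA. The lower dose overlapped DMSO and the higher dose lay below both. Its change was -0.10 (SE 0.094, adjusted p = 0.75) at 25 nM RA and -0.49 (SE 0.098, adjusted p = 1.3e-05) at 1 µM RA. Between the doses it was lower at 1 µM RA by -0.39 (SE 0.10, adjusted p = 0.0080), which DESeq2 did not call (adjusted p = 0.21) and which was lost without the first sample of 25 nM RA (-0.35, adjusted p = 0.19) or the second of 1 µM RA (-0.26, adjusted p = 0.24).

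*Mxd4* (chromosome 5 from 34176580 to 34187710, minus strand, NM_010753) encodes an MXD repressor that is typical of differentiating cells. It had 4.17 and 4.25 RPKM in DMSO, 3.92 and 4.07 RPKM after 25 nM RA, and 3.38 and 3.22 RPKM after 1 µM RA, from 167 to 253 estimated counts per sample. Conditions did not overlap. The change was -0.07 (SE 0.11, adjusted p = 0.87) at 25 nM RA and -0.36 (SE 0.11, adjusted p = 0.015) at 1 µM RA. DESeq2 did not call the latter (adjusted p = 0.24), and it was lost without the second DMSO sample (-0.33, adjusted p = 0.11) or the second 1 µM RA sample (-0.31, adjusted p = 0.14). Between the doses the difference was -0.28 (SE 0.12, adjusted p = 0.23).

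Changes over all genes followed transcript length at both doses and base composition at 1 µM RA. Of 14928 genes with a value, the eighth with the lowest GC content at 1 µM RA had a median log2 fold change of 0.05 and the eighth with the highest -0.07. The shortest eighth had 0.05 and the longest -0.07 there, and 0.03 and -0.04 at 25 nM RA, where the lowest and highest eighths of GC content had -0.0047 and -0.0021. *Mnt*, at 59.5% GC and 4586 bases, and *Mxd4*, at 55.6% GC and 1179 bases, were the both among the 3 richest in GC of the 9. With offsets for GC content and length in the fit, *Mnt* had -0.34 (SE 0.098, adjusted p = 0.0064) and *Mxd4* -0.38 (SE 0.11, adjusted p = 0.0092) at 1 µM RA. The lower level of *Mnt* at 1 µM RA than at 25 nM RA was then no longer called (-0.27, adjusted p = 0.19). *Myc* kept -0.60 and -0.88 and *Mycn* 0.42 and 0.63 against DMSO with these offsets.

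The other repressors were not called in any comparison. *Mxd1* (chromosome 6 from 86647045 to 86669159, minus strand, NM_010751), an MXD gene of terminal differentiation, had 0.893 to 1.07 RPKM and 162 to 237 counts in the 6 samples. Its change was 0.08 (95% interval -0.17 to 0.33) at 25 nM RA and 0.07 (-0.17 to 0.32) at 1 µM RA. *Mxd3* (chromosome 13 from 55325168 to 55329730, minus strand, NM_016662), the MXD gene of proliferating progenitors, had 4.94 and 6.07 RPKM in DMSO and 5.50 to 6.48 RPKM with RA. Its duplicates lay further apart than its condition means, with changes of 0.11 (-0.11 to 0.33) and 0.14 (-0.08 to 0.36). Its last 105 bases overlap *Prelid1* on the opposite strand, which had 154 to 172 RPKM. *Mxd3* has 1 transcript, yet its estimated counts were not whole (330.38 in the first DMSO sample). Whether strand was used in counting is not given in the sources used here.

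*Mga* (chromosome 2 from 119897228 to 119969581, plus strand) encodes a large repressor with a T-box that brings MAX into the Polycomb complex PRC1.6. It had the most counts of the 9, from 8426 to 11660 per sample, and 15.7 to 16.5 RPKM. Samples with 25 nM RA lay just below the DMSO samples, and those with 1 µM RA on both sides of them. Its change was -0.03 (95% interval -0.13 to 0.06) at 25 nM RA and -0.03 (-0.12 to 0.07) at 1 µM RA, and both turned above 0 with the GC and length offsets (0.02 and 0.04). NM_013720 took 76.2% to 84.3% of its counts. *Mlx* (chromosome 11 from 101087290 to 101092207, plus strand), the MAX-like partner, had 17.0 to 18.5 RPKM, with changes of -0.06 (-0.17 to 0.05) and -0.0011 (-0.11 to 0.11). The 3 transcripts of *Mlx* took 65.5% to 73.9% (NM_001159385), 14.8% to 22.8% (NM_001159384) and 6.997% to 13.8% (NM_011550) of its counts, and none was called. *Mlx* overlaps *Psmc3ip* on the opposite strand by 67 bases.

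Of the 9 genes, 1 was called higher and 1 lower at 25 nM RA, 1 higher and 3 lower at 1 µM RA, and 1 higher and 2 lower between the doses. Of all genes, 4.5% were called higher and 3.55% lower at 25 nM RA, 8.54% and 11.2% at 1 µM RA, and 0.792% and 2.62% between the doses. The 9 changes had a median of -0.03 after 25 nM RA and -0.0080 after 1 µM RA, beside -0.00051 and 0.0013 over all genes tested. No transcript of *Max*, *Mxd1*, *Mxd3*, *Mxd4*, *Mga* or *Mlx* was called in the fit of transcripts, while that of *Mnt* was called at 1 µM RA (-0.49, SE 0.16, adjusted p = 0.043) but not by the quasi-likelihood test (adjusted p = 0.14).

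The MLX branch and the MXD genes had 3 further members. *Mlxip*, which encodes the MONDOA partner of MLX, had 2.57 and 2.86 RPKM in DMSO, 2.72 and 2.505 RPKM after 25 nM RA, and 1.92 and 2.24 RPKM after 1 µM RA. It was not called at 25 nM RA (-0.10, adjusted p = 0.66) and fell at 1 µM RA (-0.41, SE 0.083, adjusted p = 2.3e-05). With the GC and length offsets this was -0.27 (adjusted p = 0.0068). *Mlxipl*, which encodes ChREBP, had 0.499 to 0.629 RPKM, with changes of 0.18 and -0.09. *Mxi1*, another MXD gene, had 2.15 to 2.39 RPKM, with -0.04 and -0.02, and neither gene was called.

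The genes that work with or act on MYC and MAX were described by a list of 22 cofactors, corepressors and turnover genes. At 25 nM RA 1 rose and 2 fell (of all genes 4.5% and 3.55%), and at 1 µM RA 2 rose and 6 fell (8.54% and 11.2%), with medians of -0.0014 and 0.0082. *Pim1*, a kinase that stabilizes MYC, had 7.17 and 6.92 RPKM in DMSO, 13.8 and 12.5 RPKM after 25 nM RA, and 14.0 RPKM in both samples after 1 µM RA. It rose by 0.89 (SE 0.072, adjusted p = 2.6e-33) and 0.98 (SE 0.071, adjusted p = 1.7e-41). *Gsk3b*, a kinase that marks MYC for destruction, fell by 0.23 (adjusted p = 4.6e-04) and 0.38 (adjusted p = 4.5e-11). *Huwe1*, a ubiquitin ligase for MYC proteins, fell by 0.17 (adjusted p = 0.0049) and 0.34 (adjusted p = 3.4e-11). *Trrap*, a scaffold of histone acetyltransferases that MYC recruits, fell at 1 µM RA by 0.36 (adjusted p = 1.7e-11), and *Hdac2*, a corepressor subunit, rose there by 0.13 (adjusted p = 0.069). With the GC and length offsets *Hdac2* was no longer called (adjusted p = 0.41), and the falls at 1 µM RA were 0.15 for *Trrap* (adjusted p = 0.0065), 0.20 for *Huwe1* (adjusted p = 4.0e-05) and 0.31 for *Gsk3b* (adjusted p = 6.8e-10). *Huwe1* fell by 0.11 at 25 nM RA in that fit (adjusted p = 0.082). Without the first DMSO sample fewer of the 22 genes were called at 1 µM RA, and fewer of all genes. Among the 9 genes of PRC1.6 that associate with MGA and MAX, 0 were called at 25 nM RA by edgeR or DESeq2 and 0 had an unadjusted p under 0.05, and only *Yaf2*, a subunit that binds RING1 proteins, was called at 1 µM RA (0.20, SE 0.056, adjusted p = 0.0047).

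Known targets of MYC were described by 50 genes that it activates and 8 that it represses, both taken from general knowledge of the pathway. These lists, and those of the preceding paragraph, were drawn up with earlier results of these data known. Counts over them are therefore descriptions. Of the activated targets, 3 rose and 1 fell at 25 nM RA, where 4.5% and 3.55% of all genes did so, and 10 rose and 3 fell at 1 µM RA, where 8.54% and 11.2% did. The 4 calls at 25 nM RA became 2 by the quasi-likelihood test, and fewer without any 1 sample of DMSO or 25 nM RA. Calls over all genes went from 1219 to 1046 by that test and also fell without any such sample. The 13 calls at 1 µM RA became fewer without either DMSO sample or the first sample of 1 µM RA, and calls over all genes then fell too. Their median change was 0.03 and 0.06, beside -0.00051 and 0.0013 over all genes tested. Of the 50, 39 and 34 lay above 0, and 37 and 40 did so with the GC and length offsets. *Hk2*, the hexokinase of glycolysis, had 28.0 and 27.9 RPKM in DMSO, 31.4 and 32.1 RPKM after 25 nM RA, and 32.0 and 32.1 RPKM after 1 µM RA, a rise of 0.18 (SE 0.048, adjusted p = 0.0046) and 0.19 (SE 0.048, adjusted p = 0.0011). *Ncl*, encoding nucleolin, had 112 and 109 RPKM in DMSO, 118 and 135 RPKM after 25 nM RA, and 126.6 and 128.5 RPKM after 1 µM RA. Its change at 25 nM RA was 0.19 (adjusted p = 0.035), and 0.08 without the second sample of that dose. DESeq2 did not call that change (adjusted p = 0.48). In the edgeR fit with GC and length offsets *Ncl* had 0.226 at 25 nM RA and 0.234 at 1 µM RA. *Tert*, the telomerase reverse transcriptase, had -0.27 at 25 nM RA (adjusted p = 0.097), which was not called by the quasi-likelihood test (adjusted p = 0.14), with the GC and length offsets (adjusted p = 0.10) or with any 1 sample left out. At 1 µM RA *Tfrc*, the transferrin receptor, rose by 0.19 (adjusted p = 0.0018), *Cad*, of pyrimidine synthesis, fell by 0.18 (adjusted p = 0.0019), and *Slc7a5*, an amino acid transporter, fell by 0.18 (adjusted p = 0.0032). With the GC and length offsets 7 rose and 1 fell at 1 µM RA, while calls over all genes in either direction went from 2983 to 2487. *Cad* (0.0028, adjusted p = 0.98) and *Slc7a5* (-0.09, adjusted p = 0.13) were then no longer called. Between the doses 2 rose without the offsets, where 0.792% of all genes did, and 0 with them. Calls over all genes in either direction between the doses went from 516 to 313 with the offsets.

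Of the repressed targets, 1 rose and 3 fell at 25 nM RA (of all genes 4.5% and 3.55%), and 3 rose and 4 fell at 1 µM RA (8.54% and 11.2%), with medians of -0.13 and -0.16. Without the first sample of 25 nM RA, the 4 calls at that dose became fewer, as did those over all genes. *Gadd45a*, a stress and growth arrest gene, had 6.501 and 6.03 RPKM in DMSO, 12.01 and 12.9 RPKM after 25 nM RA, and 17.2 and 14.1 RPKM after 1 µM RA. It rose by 0.99 (SE 0.10, adjusted p = 6.5e-21) and 1.31 (SE 0.098, adjusted p = 1.6e-38). At 1 µM RA *Ndrg1*, a stress gene, rose by 0.20 (adjusted p = 0.0080). *Klf6*, a zinc finger factor that restrains growth, fell by 0.27 (adjusted p = 2.5e-06) and 0.37 (adjusted p = 1.3e-11). A pair of cell cycle inhibitor genes also fell, *Cdkn1b* by 0.22 (adjusted p = 0.0073) at 25 nM RA and *Cdkn1a* by 0.41 (adjusted p = 3.0e-07) at 1 µM RA. In the edgeR fit with GC and length offsets, *Cdkn1b* was also lower at 1 µM RA (-0.24, adjusted p = 2.2e-04). *Cdkn1a* was not called at 25 nM RA in that fit (-0.16, adjusted p = 0.17). For 42 of the activated targets the table held 57 promoters, a gene having 1 or more. Of these promoters, 13 had CACGTG (22.8%, against 7.15% of all promoters) and 20 had CACGCG (35.1%, against 9.27%). Of 10 promoters of 7 repressed targets, 1 had CACGTG and 1 had CACGCG. The lists hold known MYC targets and the motifs come from the genome sequence, so these shares are no result of the 6 samples.

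**Figure D4:**
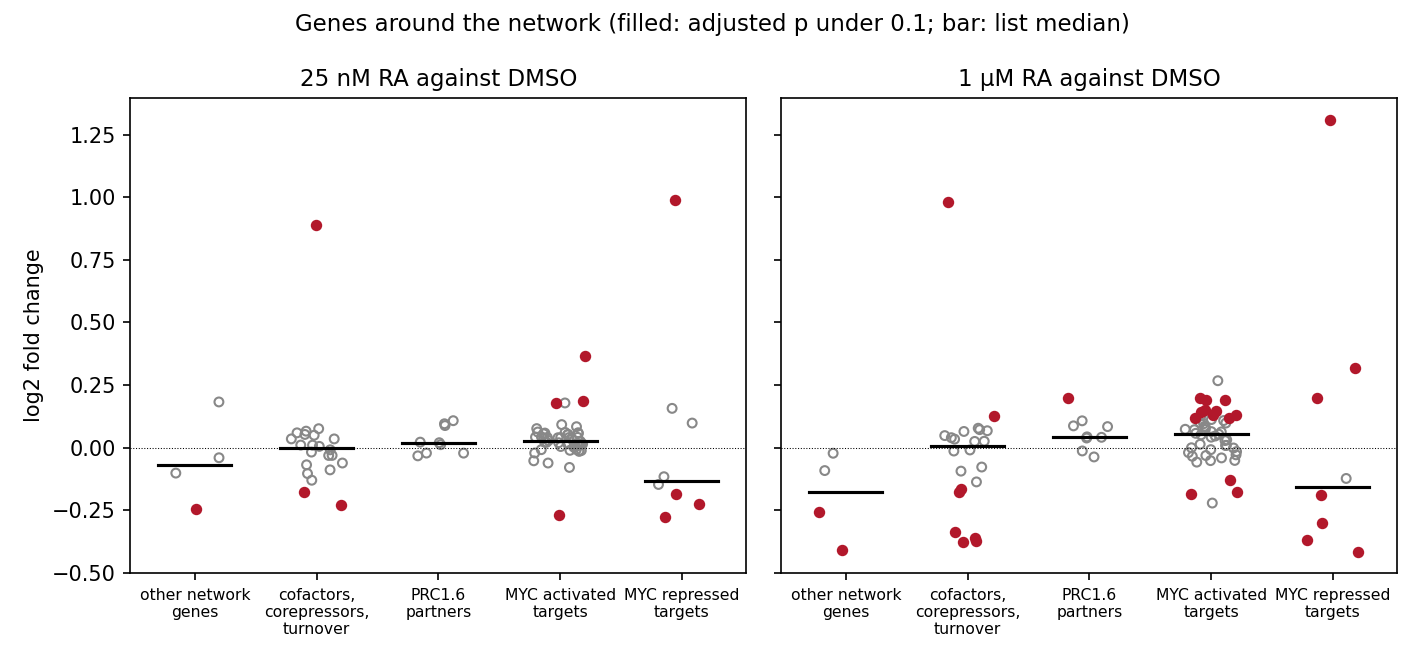
Log2 fold change against DMSO (y axis) of the genes around the network at 25 nM RA (left) and 1 µM RA (right), 1 point per gene, filled where the adjusted p is under 0.1, with a bar at the median of each list. The highest points are *Pim1* (0.89 and 0.98) and *Gadd45a* (0.99 and 1.31), and the medians of the 50 activated targets are 0.03 and 0.06.

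The genes whose level over the 6 samples was most like that of *Myc* were sought among 11094 genes by Pearson correlation of log2 CPM (counts scaled to library size). They were *Zfp217*, a zinc finger factor (r = 0.997), *Vim*, the intermediate filament vimentin (r = 0.996), and *Rgs17*, a regulator of G protein signaling (r = 0.994). *Vim* had 125 and 120 RPKM in DMSO and 103 and 98.9 RPKM with 1 µM RA. Those most like *Mycn* were *Ube3c*, a ubiquitin ligase (r = 0.999), *Fgf15*, an FGF ligand (r = 0.999), and *Nek2*, a mitotic kinase (r = 0.998). *Fgf15* had 7.76 and 7.78 RPKM in DMSO, 22.1 and 21.7 RPKM after 25 nM RA, and 33.4 and 33.3 RPKM after 1 µM RA. These values only rank genes by their pattern over 6 samples of 3 conditions and ignore the size of a change. Log2 fold changes at the lower and higher dose were -0.11 and -0.17 for *Zfp217* and -0.20 and -0.29 for *Vim*. They were -0.45 and -0.62 for *Rgs17* and 0.16 and 0.23 for *Ube3c*. *Fgf15* had 1.49 and 2.09, and *Nek2* had 0.17 and 0.23.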

How the data were processed

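RNA-seq of 6 samples was used, grouped by their labels. The authors depleted ribosomal RNA (TruSeq Stranded Total RNA kit), aligned reads with TopHat to mm10 and divided them among RefSeq transcripts by expectation-maximization. The submitters' processing notes name FastQC 0.11, TopHat2 2.0.13, Bowtie2 2.2.5.0 and Partek 6.6. The deposited estimated counts are not normalized, and the deposited RPKM values were scaled by the authors by transcript length and reads per sample, whose implied totals the counts make up to 81.2% to 83.2%.

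Estimated counts were summed per gene, rounded and fitted in edgeR 4.0.16 (R 4.3.3) with TMM (factors 0.989 to 1.01), filterByExpr and the likelihood ratio test on all 6 samples. Adjusted p-values are those of Benjamini and Hochberg. The biological coefficient of variation was 0.0351 per gene and 0.131 per transcript. The procedure was tested on simulated data. DESeq2 1.42.0 and the other alternatives are given at the end. The GC and length offsets were added after the data were seen, by loess per sample.

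The members and the gene lists were chosen with earlier results of these data known. Text names all 9 network genes, all other network genes listed, and from each further list the 2 genes per direction with the smallest adjusted p at each dose. *Psmc3ip* and *Prelid1* are named for their position. Start and end positions are from the deposited files, with the end taken as the last base. Python 3.11.15 (pandas 2.3.3, matplotlib 3.10.9) wrote the tables and drew the plots.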

Additional observations from a re-analysis of the deposited data

How the results depend on the processing

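With duplicates, a lone sample left by leaving out its partner is assumed to vary like the other conditions. All called changes of *Myc* and *Mycn* against DMSO, and of *Mnt* at 1 µM RA, were called under every alternative run on gene counts, with adjusted p up to 9.6e-05, 6.5e-07, 4.1e-06, 2.7e-08 and 0.013 (*Myc* and *Mycn* at 25 nM and 1 µM RA, then *Mnt*). The number of genes called at 25 nM RA was 1219, and 567 by DESeq2. At 1 µM RA it was 2983, and 1594 by DESeq2 and 1833 for transcripts. Between the doses it was 516, and 336 by the quasi-likelihood test, 158 by DESeq2, 340 at an adjusted p under 0.05 and 313 with GC and length offsets. Leaving out 1 sample gave 799 to 1345, 1922 to 2838 and 205 to 577. The counts that moved by over 1.5 times were 800 and 799 without the second sample of DMSO or 25 nM RA, 1960 and 1922 without the first or second DMSO sample, and 205 and 247 without the first or second sample of 25 nM RA. Between the doses, the call of *Myc* was lost by the quasi-likelihood test (-0.29) and DESeq2 (-0.30), and that of *Mnt* by DESeq2 (-0.39) and the offsets (-0.27). The call of *Mxd4* at 1 µM RA was lost by DESeq2 (-0.36). Leaving out 1 sample moved *Myc* between the doses from -0.43 to -0.17, *Mycn* from 0.16 to 0.20, *Mnt* from -0.54 to -0.26, and *Mxd4* at 1 µM RA from -0.40 to -0.31. Genes that were not called changed sign: the offsets turned *Mga* to 0.024 at 25 nM RA and 0.044 at 1 µM RA and *Mxd1* to 0.018 between the doses, and total counts turned *Mga* to -0.0051 between the doses. Leaving out 1 sample gave ranges across 0 at 25 nM RA for *Mxd1* (-0.049 to 0.18) and *Mxd3* (-0.044 to 0.27). At 1 µM RA it did so for *Max* (-0.023 to 0.012), *Mxd1* (-0.072 to 0.20), *Mxd3* (-0.018 to 0.30), *Mga* (-0.069 to 0.014) and *Mlx* (-0.043 to 0.041). Between the doses it did so for *Mxd1* (-0.15 to 0.12), *Mxd3* (-0.078 to 0.13) and *Mga* (-0.036 to 0.048). Except where fewer samples or features were used, the cause was not tested. Replicate numbers did not pair the samples (correlations of deviations -0.0409, 0.0484 and -0.0615). With the replicate block 1138, 2756 and 423 genes were called, and no call of the 9 genes changed. Genes with few counts, such as *Mxd1*, were measured least precisely.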

Other observations

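*Pvt1*, a non-coding RNA gene next to *Myc* that was picked after its values were seen, had 1.31 and 1.58 RPKM in DMSO, 1.505 and 1.57 RPKM after 25 nM RA, and 1.34 and 1.44 RPKM after 1 µM RA. Its log2 fold change was 0.10 (95% interval -0.14 to 0.33) at the lower and -0.06 (-0.29 to 0.18) at the higher dose, with adjusted p = 0.84 and 0.83 by the likelihood ratio test of edgeR. All 4 RA-treated samples lay within the range of the DMSO samples.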
